A study of Homo sapiens with 10 samples.

Results

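The genes described here encode the enzymes that make serine and asparagine and that carry single carbon units on folate. They were chosen by name: PHGDH, PSAT1, PSPH, SHMT1, SHMT2, MTHFD1, MTHFD2, MTHFD1L, ALDH1L2 and ASNS, and all 10 were found among the 12540 genes of the deposited table. The choice was made with earlier results of these data known. RNA came from the SRA01-04 line, human lens epithelial cells kept in culture by an introduced large T antigen. One group (RORα, libraries OE1 to OE5) was transfected with a plasmid expressing RORα, a nuclear receptor encoded by RORA, and the other (empty vector, libraries EV1 to EV5) with the plasmid alone. Both groups received 10 µM selenite for 24 h, beginning 48 h after transfection, so no untreated or untransfected cells enter any value. The labels do not say whether the 5 libraries of a group were separate cultures, and p-values measure only the spread between these libraries.

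Cells make serine from a glycolytic intermediate. PHGDH oxidises 3-phosphoglycerate, PSAT1 adds the amino group and PSPH removes the phosphate. Serine hydroxymethyltransferases then pass a carbon of serine to tetrahydrofolate, giving glycine. This happens in the mitochondrion through SHMT2 and in the cytosol through SHMT1. In the mitochondrion MTHFD2 and MTHFD1L turn the carbon into formate, which leaves for the cytosol, where MTHFD1 returns it to folate for purine and thymidylate synthesis. ALDH1L2 oxidises mitochondrial formyl folate to carbon dioxide and makes NADPH. ASNS makes asparagine from aspartate and glutamine. Several of these genes are known targets of ATF4, the transcription factor of the integrated stress response.

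Levels are given as CPM, counts per 1000000 counts of the library, with library size scaled by edgeR's TMM factor. RORA itself had 41.7, 42.5, 39.4, 44.0 and 38.6 CPM in OE1 to OE5, against 16.4, 14.8, 17.0, 11.2 and 15.5 CPM in EV1 to EV5, so the groups did not overlap. Library totals ran from 17475342 to 21956761 counts, and the biological coefficient of variation between replicates was 4.57%. Of 16 lens markers, 5 were among the genes analysed here (PAX6, CRYAB, SIX3, GJA1 and BFSP1), without CRYAA, FOXE3, PITX3 or MIP, and CRYAB averaged 0.370 CPM in RORα libraries and 1.43 CPM in empty vector libraries. BFSP1 averaged 4.80 CPM in RORα libraries and 7.51 CPM in empty vector libraries. CRYAB and BFSP1 were both called lower, and none of the 5 was called higher, beside 27.5% and 28.6% of all genes tested. CRYAB had only 3 to 10 counts in RORα libraries and 23 to 35 in empty vector libraries, so its level was near the floor of counting. The lens markers summed to 84.8 to 96.2 CPM in RORα libraries and 86.5 to 94.2 CPM in empty vector libraries. Fibroblast markers, 7 of 9 of which were measured, summed to 1022 to 1148 CPM in RORα libraries and 3077 to 3313 CPM in empty vector libraries. All 7 were called lower, beside 27.5% of all genes tested. CD14, the 1 measured of 6 immune markers, lay between 1.08 and 1.71 CPM in RORα libraries and between 2.44 and 3.63 CPM in empty vector libraries. PECAM1, the 1 measured of 5 endothelial markers, lay between 2.87 and 3.26 CPM in RORα libraries and between 5.30 and 6.90 CPM in empty vector libraries. KRT3, the 1 measured of 5 corneal markers, lay between 0.152 and 0.602 CPM in RORα libraries. In empty vector libraries KRT3 lay between 2.34 and 3.31 CPM. It had only 3 to 11 counts in RORα libraries, near the floor of counting, and 44 to 61 in empty vector libraries. The 2 measured of 5 pigment cell or retina markers summed to 10.9 to 13.4 CPM in RORα libraries and 10.5 to 13.6 CPM in empty vector libraries. The part of these marker differences in the results below was not tested. In bulk RNA, fewer cells of a type and less RNA per cell cannot be told apart.

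Most genes of serine synthesis and of the mitochondrial folate path rose with RORα, and the cytosolic folate enzymes did not pass the test. Of the 10 genes, 7 rose, 1 fell and 2 did not pass a Benjamini-Hochberg adjusted p of 0.05 in edgeR's quasi-likelihood test. Of 12520 genes tested in the same fit, 28.6% were called higher and 27.5% lower, together 56.1%. Since the 10 were chosen with earlier results of these data known, their counts beside the shares of all genes are description only. Every RORα library stood above every empty vector library for 7 of the 10, which was so for 20.8% of all genes, and none of the 10 lay wholly below, against 18.9% of all genes. The median log2 fold change over the 10 was 0.40, and over all genes tested 0.00. ASNS and ALDH1L2 had the largest fold changes, at 2.74-fold and 2.72-fold, and ranked 178 and 185 from the top among all genes. PSAT1 ranked 607, MTHFD2 753, PHGDH 1567, SHMT2 1646 and PSPH 3096. A rise of at least 2-fold that passed the test was seen in 3.28% of all genes, and in 2 of these 10.

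**Figure D1:**
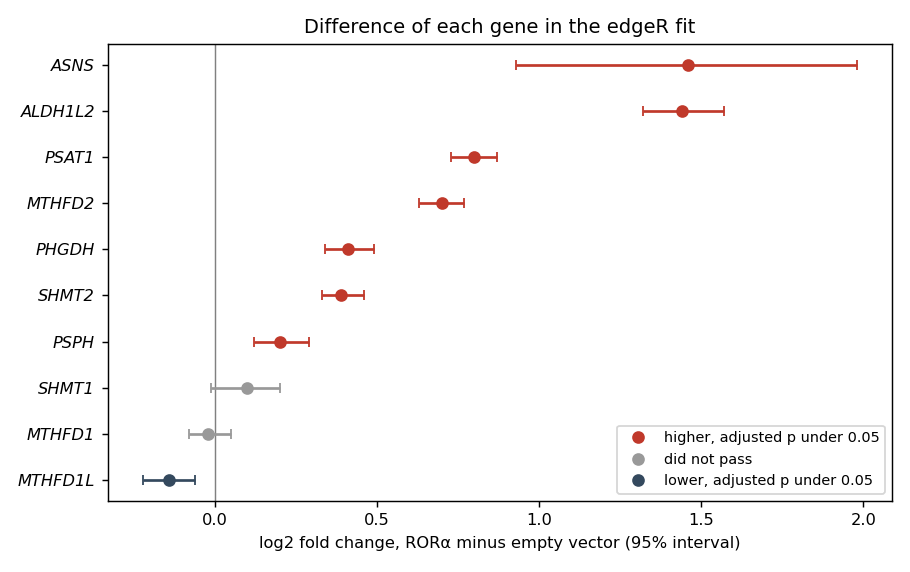
Log2 fold change of each of the 10 genes (x axis, RORα minus empty vector, points) with its 95% interval (bars) from edgeR, sorted by size and coloured by call. The rises run from 0.20 for PSPH to 1.46 for ASNS, SHMT1 and MTHFD1 have intervals that include 0, and MTHFD1L lies at -0.14.

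Promoter sequences, running from 250 bases before to 50 after an annotated start, were found in RefSeq (GRCh38.p14) for 7 of the 10 genes, with 11 starts in all, and PSPH, SHMT2 and ALDH1L2 were not searched. They were searched on both strands for TGATGNAA (the C/EBP-ATF response element, which ATF4 binds), TNGGTCA (a pattern used here for the RORα response element) and CACGTG (the E-box). Of 15009 such promoters of genes in the table, 2.06% held TGATGNAA, 7.70% TNGGTCA and 9.13% CACGTG. Counted by gene, with a match in any of a gene's promoters, the shares of 10198 genes were 2.83%, 10.4% and 12.5%. Of the 7 genes, ASNS and MTHFD1L held TGATGNAA, MTHFD1L and MTHFD1 held CACGTG, and none held TNGGTCA. Other forms of the RORα response element were not searched for. The 4 sequences below are shown because they set the 2 genes with a TGATGNAA match, of which ASNS rose and MTHFD1L fell, beside PSAT1 and MTHFD2, which rose and hold no match in this window. They run 5′ to 3′ on the gene's strand, with matches in capitals. The regions are chr7:97872359-97872658 on the minus strand for ASNS, and on the plus strand chr9:78296875-78297174 for PSAT1, chr2:74198365-74198664 for MTHFD2 and chr6:150866236-150866535 for MTHFD1L.
ASNS: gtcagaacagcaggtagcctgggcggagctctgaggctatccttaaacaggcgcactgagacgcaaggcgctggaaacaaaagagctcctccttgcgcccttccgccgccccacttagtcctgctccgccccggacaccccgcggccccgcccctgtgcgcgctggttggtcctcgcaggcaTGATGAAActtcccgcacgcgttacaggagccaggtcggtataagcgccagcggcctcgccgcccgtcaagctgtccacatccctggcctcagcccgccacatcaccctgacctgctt
PSAT1: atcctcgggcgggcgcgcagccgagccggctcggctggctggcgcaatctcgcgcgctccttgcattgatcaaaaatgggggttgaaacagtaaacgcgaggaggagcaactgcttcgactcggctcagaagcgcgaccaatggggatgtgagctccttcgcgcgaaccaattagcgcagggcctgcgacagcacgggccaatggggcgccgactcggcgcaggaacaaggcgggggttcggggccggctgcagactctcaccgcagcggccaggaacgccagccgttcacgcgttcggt
MTHFD2: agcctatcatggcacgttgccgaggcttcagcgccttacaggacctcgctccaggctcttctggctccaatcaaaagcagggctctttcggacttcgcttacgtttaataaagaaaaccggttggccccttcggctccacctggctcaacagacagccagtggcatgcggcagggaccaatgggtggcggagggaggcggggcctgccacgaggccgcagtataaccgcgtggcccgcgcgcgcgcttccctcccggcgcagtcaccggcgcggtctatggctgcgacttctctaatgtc
MTHFD1L: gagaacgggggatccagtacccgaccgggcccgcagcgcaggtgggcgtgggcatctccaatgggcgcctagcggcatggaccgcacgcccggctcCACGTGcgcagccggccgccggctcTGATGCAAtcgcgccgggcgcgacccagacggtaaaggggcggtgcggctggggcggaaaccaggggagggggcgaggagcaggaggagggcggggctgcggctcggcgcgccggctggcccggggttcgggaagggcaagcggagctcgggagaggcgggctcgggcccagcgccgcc
The ASNS match, TGATGAAA, begins at position -68 from the start. In MTHFD1L the match TGATGCAA begins at -129 and CACGTG at -154, and both also lie within 2 of its other 3 annotated promoters, which overlap this one. In MTHFD1 CACGTG begins at -15. These matches are descriptions of sequence and do not show binding.

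The serine branch rose at all 3 steps, by unequal amounts. PSAT1 (ENSG00000135069, chromosome 9, 78297143 to 78330093, plus strand, GRCh38), the aminotransferase, had 260.5, 244.6, 245.6, 250 and 229.1 CPM in OE1 to OE5, against 136, 140.9, 146, 143 and 142 CPM in EV1 to EV5. The lowest RORα library stood 83.4 CPM above the highest empty vector library. The means were 246 ± 11.3 CPM with RORα and 141.5 ± 3.53 CPM with the empty vector (SD, n = 5 each), a rise of 1.74-fold (log2 fold change 0.80, SE 0.035, edgeR adjusted p = 5.01e-22). PHGDH (ENSG00000092621, chromosome 1, 119648411 to 119744226, plus strand), the first enzyme of the branch, had 222, 205, 233, 222 and 229 CPM in OE1 to OE5 and 167, 164, 155, 181 and 168 CPM in EV1 to EV5. Its groups did not overlap either, and it rose 1.33-fold (95% interval 1.26 to 1.40, edgeR adjusted p = 3.92e-12). PSPH (ENSG00000146733, chromosome 7, 56011051 to 56051604, minus strand), the phosphatase, lay between 68.6 and 77.8 CPM in RORα libraries and between 62.7 and 65.1 CPM in empty vector libraries. Its rise was 1.15-fold (95% interval 1.09 to 1.22, edgeR adjusted p = 8.07e-05). The 95% intervals of the 3 fold changes do not overlap. Counts of PSAT1 were 1.00 to 1.19 times those of PHGDH in RORα libraries and 0.788 to 0.939 times in empty vector libraries. Counts of PSPH were 0.309 to 0.353 times those of PHGDH in RORα libraries and 0.349 to 0.411 times in empty vector libraries. Both ratios were chosen after their values were seen and were not tested. GENCODE 29 lists 4 pseudogenes named for PSAT1 and 1 for PSPH, none among the genes analysed here, and the sources used here do not state how shared reads were counted.

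ASNS (ENSG00000070669, chromosome 7, 97852118 to 97872542, minus strand), asparagine synthetase, had the largest fold change of the 10 and by far the fewest counts. It had 32, 44, 39, 35 and 39 counts in OE1 to OE5, against 11, 14, 19, 6 and 17 counts in EV1 to EV5. As CPM this was 1.46, 2.07, 2.13, 2.00 and 1.98 in RORα libraries and 0.598, 0.698, 0.933, 0.343 and 0.869 in empty vector libraries, so the groups did not overlap. The rise was 2.74-fold with a 95% interval of 1.90 to 3.95 (log2 fold change 1.46, SE 0.26, edgeR adjusted p = 8.77e-06), the widest interval of the 10. On log2(FPKM + 1) limma gave a log2 difference of 0.07, since its FPKM are small beside the added 1. The coefficient of variation was 13.9% in RORα libraries and 34.1% in empty vector libraries. The low level has a limit that bears on its use. In GENCODE 29, 44.6% of the merged exons of ASNS also lie in exons of AC079781.5 (ENSG00000284707), a longer transcript on the same strand that is not among the genes analysed here. HTSeq's default mode sets aside reads that fall on more than 1 gene, but the sources used here state neither the mode nor the annotation release, and the part of this overlap in the level was not tested. The count of ASNS should therefore not be read as its abundance beside the other genes. Its difference between groups may also rest on only a part of its exons. Whether the 2.74-fold rise is that of the whole gene was not tested. There are also 4 pseudogenes named for ASNS.

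**Figure D2:**
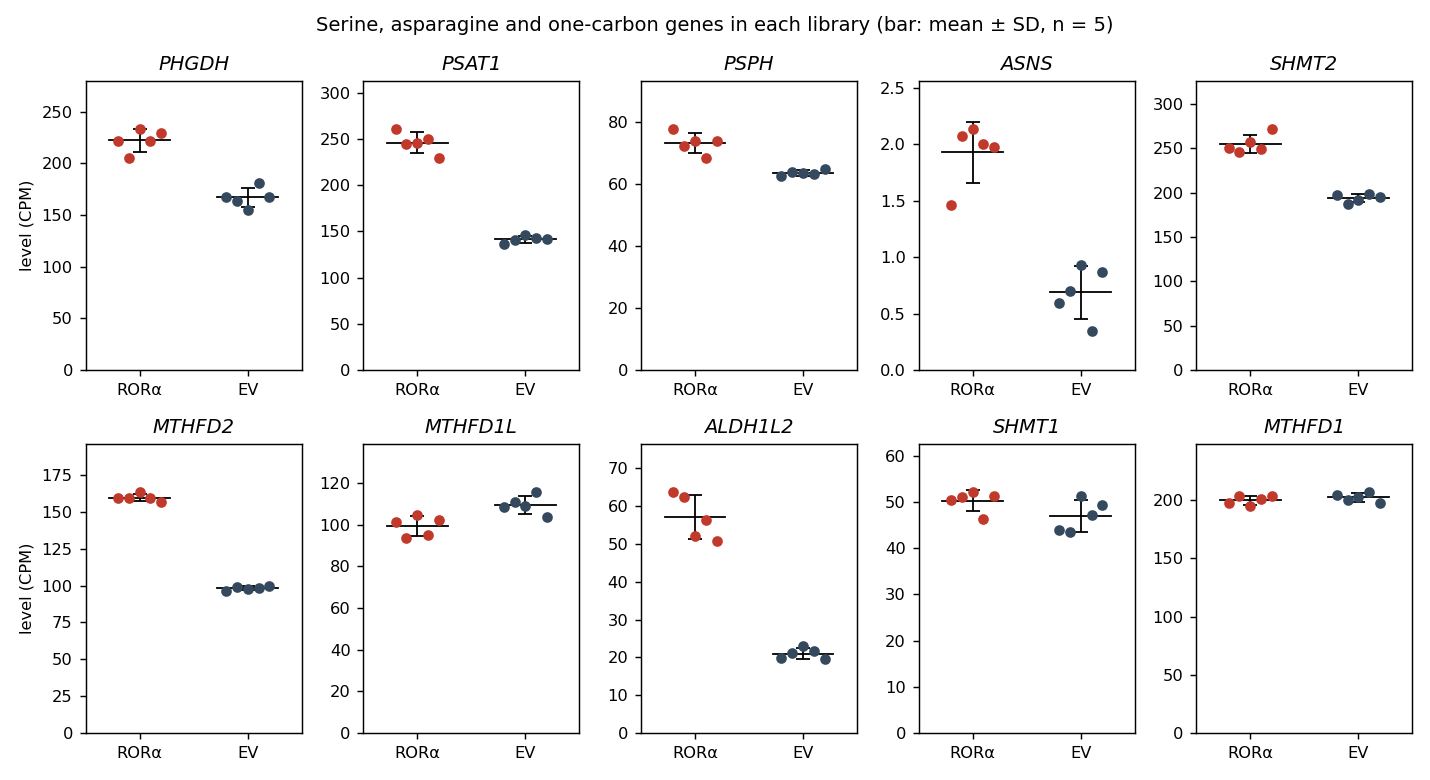
Level of each of the 10 genes (y axis, CPM, from 0) in the 5 RORα libraries (left, red) and the 5 empty vector libraries (right, dark); points are libraries, the line is the mean and the bar 1 SD. The groups are separate for PHGDH, PSAT1, PSPH, ASNS, SHMT2, MTHFD2 and ALDH1L2 and overlap for MTHFD1L, SHMT1 and MTHFD1.

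In the mitochondrial folate path 3 enzymes rose and 1 fell. ALDH1L2 (ENSG00000136010, chromosome 12, 105019784 to 105084577, minus strand), the NADPH-forming formyl folate dehydrogenase, had 63.8, 62.3, 52.1, 56.2 and 50.8 CPM in OE1 to OE5, against 19.8, 21.1, 22.9, 21.6 and 19.6 CPM in EV1 to EV5. OE1 and OE2 were its highest libraries, and the lowest RORα library, OE5, was still above every empty vector library. The rise was 2.72-fold (log2 fold change 1.44, SE 0.063, edgeR adjusted p = 5.54e-22). On log2(FPKM + 1), which understates changes of low genes, limma gave a log2 difference of 0.80, short of 2-fold. MTHFD2 (ENSG00000065911, chromosome 2, 74198562 to 74217565, plus strand), the dehydrogenase and cyclohydrolase, had 159, 159.7, 163.5, 159 and 156 CPM in OE1 to OE5 and 96.0, 99.0, 97.7, 98.1 and 99.9 CPM in EV1 to EV5. The coefficient of variation was 1.58% in RORα libraries, the lowest of the 10 genes, and 1.49% in empty vector libraries. MTHFD2 rose 1.63-fold (95% interval 1.55 to 1.71, edgeR adjusted p = 2.44e-20). Exons of genes on the opposite strand, mostly of SLC4A5, cover 33.2% of the merged exons of MTHFD2, and the labels name no step that keeps the strand, so reads of the pair cannot be told apart. GENCODE 29 also lists 7 pseudogenes named for MTHFD2.

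SHMT2 (ENSG00000182199, chromosome 12, 57229327 to 57234935, plus strand), which loads folate with the carbon of serine, had 250.5, 246, 257, 249 and 271 CPM in OE1 to OE5, against 197, 187, 191, 199 and 195 CPM in EV1 to EV5. The groups did not overlap, and the rise was 1.31-fold (95% interval 1.25 to 1.38, edgeR adjusted p = 3.01e-13). MTHFD1L (ENSG00000120254, chromosome 6, 150865549 to 151101887, plus strand), which releases formate, moved the other way. It had 101.5, 93.8, 104.5, 94.8 and 102 CPM in OE1 to OE5 and 108, 110.8, 109, 116 and 104 CPM in EV1 to EV5. OE3 stood above EV5, so the groups overlapped, and the fall was 1.10-fold (log2 fold change -0.14, 95% interval -0.22 to -0.06, edgeR adjusted p = 0.00287). Its promoter, shown above, holds both TGATGNAA and CACGTG.

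The cytosolic enzymes did not pass the test. SHMT1 (ENSG00000176974, chromosome 17, 18327860 to 18363563, minus strand) had 50.5, 51.0, 52.2, 46.3 and 51.4 CPM in OE1 to OE5, against 43.8, 43.4, 51.3, 47.2 and 49.3 CPM in EV1 to EV5. Its log2 fold change was 0.10 with a 95% interval of -0.01 to 0.20 (edgeR adjusted p = 0.105). Without EV3, the highest empty vector library, it passed at an edgeR adjusted p of 0.0373 with a log2 fold change of 0.13. MTHFD1 (ENSG00000100714, chromosome 14, 64388031 to 64463457, plus strand), which joins these folate steps in 1 cytosolic protein, averaged 200.0 ± 3.81 CPM with RORα and 202 ± 3.88 CPM with the empty vector (SD, n = 5 each). Its log2 fold change was -0.02 with a 95% interval of -0.08 to 0.05 (edgeR adjusted p = 0.665), so a difference beyond 1.06-fold in either direction lay outside that interval.

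The balance of the mitochondrial and cytosolic forms was compared as the ratio of their read counts within each library, in which library size cancels. SHMT2 had 4.96, 4.82, 4.92, 5.37 and 5.28 times the counts of SHMT1 in OE1 to OE5, against 4.49, 4.30, 3.73, 4.21 and 3.96 times in EV1 to EV5. The groups did not overlap, and the ratio was 1.23-fold higher with RORα (exact permutation test over the libraries, two-sided, p = 0.00794). MTHFD2 had 0.808, 0.785, 0.839, 0.792 and 0.769 times the counts of MTHFD1 in OE1 to OE5, and 0.469, 0.495, 0.482, 0.474 and 0.506 times in EV1 to EV5. That ratio was 1.65-fold higher (exact permutation p = 0.00794), and 0.00794 is the smallest value this many libraries allow. MTHFD1L had 0.515, 0.461, 0.536, 0.472 and 0.502 times the counts of MTHFD1 in OE1 to OE5, and 0.528, 0.554, 0.538, 0.559 and 0.526 times in EV1 to EV5. OE3 stood above EV1 and EV5, so the groups overlapped, and the ratio was 1.09-fold lower (exact permutation p = 0.0238). Without EV2 or without EV4 this last p became 0.0556, with a log2 difference of -0.11 in each case, in place of -0.12. These were the 3 ratios tested, and the Benjamini-Hochberg adjusted values over them were 0.0119, 0.0119 and 0.0238. The ratios use the same counts as the gene fits above, so they are not separate evidence. MTHFD1 hardly moved, so its ratio with MTHFD2 largely repeats the 1.63-fold rise of MTHFD2. The genes were chosen with earlier results of these data known. MTHFD2 also moved against MTHFD1L, its partner in the mitochondrion, with 1.53 to 1.70 times its counts in RORα libraries and 0.847 to 0.964 times in empty vector libraries, a ratio chosen after its values were seen and not tested.

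**Figure D3:**
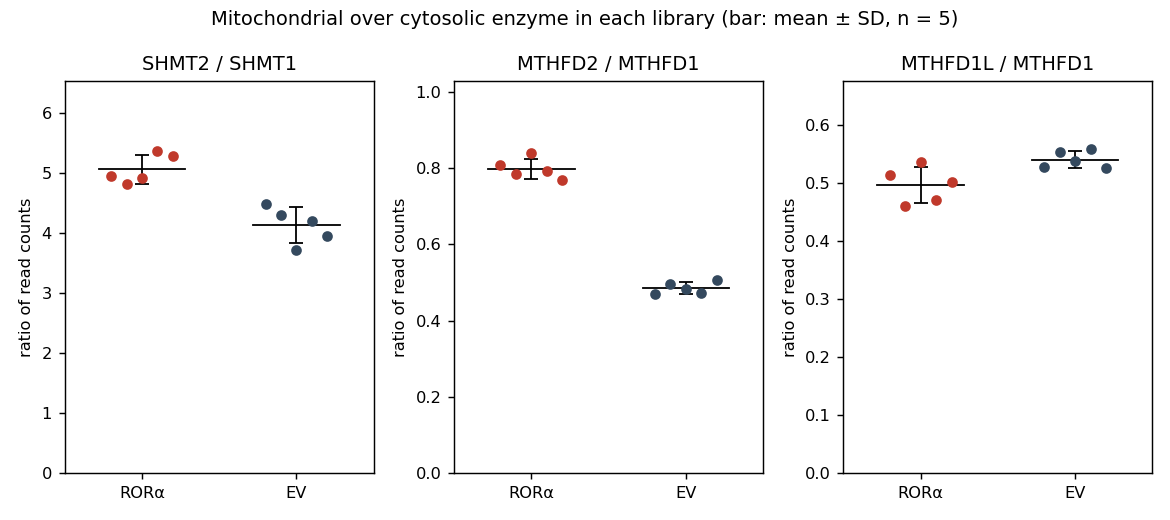
Ratio of read counts of a mitochondrial over a cytosolic enzyme (y axis, from 0) in each RORα library (left, red) and each empty vector library (right, dark); the line is the mean and the bar 1 SD. SHMT2 over SHMT1 and MTHFD2 over MTHFD1 are higher in all 5 RORα libraries, at 4.82 to 5.37 and 0.769 to 0.839, and MTHFD1L over MTHFD1 overlaps between the groups.

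Levels of different genes were compared as CPM per kilobase of the principal transcript in GENCODE 29, without ASNS for the reason given above. MTHFD2 was kept, though exons on the opposite strand cover 33.2% of its merged exons. Its place in the order carries that limit, and the part of this overlap in its level was not tested. With RORα, PSAT1 stood highest at 112 ± 5.17 and SHMT2 next at 100.3 ± 4.04 (SD, n = 5), and the ranges of these neighbours overlapped. PHGDH followed at 85.9 ± 4.16 and MTHFD1 at 63.8 ± 1.21, each apart from its neighbours. MTHFD2 at 35.8 ± 0.566 and PSPH at 33.7 ± 1.54 overlapped, followed by MTHFD1L at 27.6 ± 1.33, SHMT1 at 20.4 ± 0.933 and ALDH1L2 at 7.56 ± 0.777. With the empty vector SHMT2 stood highest at 76.4 ± 1.90. PSAT1 at 64.7 ± 1.61, PHGDH at 64.6 ± 3.60 and MTHFD1 at 64.5 ± 1.24 could not be put in order, since their ranges overlapped. MTHFD1L at 30.4 ± 1.21 and PSPH at 29.3 ± 0.415 also overlapped, above MTHFD2 at 22.0 ± 0.328 and SHMT1 at 19.1 ± 1.39. ALDH1L2 was lowest at 2.78 ± 0.182. The order depends on the length used. Per kilobase of merged exons, which are 9217 bases long for PHGDH against 2585 in its principal transcript, PHGDH dropped to 24.1 with RORα and 18.1 with the empty vector, the fifth and the seventh place, and PSAT1 came first in both groups. On that length PSAT1 stood at 64.7 and SHMT2 at 40.1 with the empty vector, the reverse of their order per principal transcript.

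**Figure D4:**
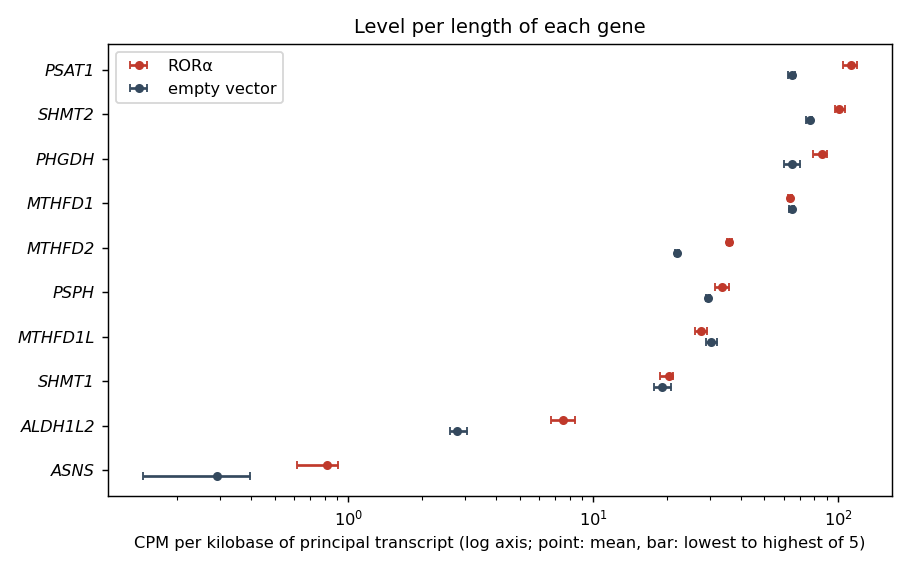
Level per kilobase of principal transcript (x axis, CPM per kilobase, log scale) of each gene in RORα libraries (red, upper) and empty vector libraries (dark, lower); points are means and bars run from the lowest to the highest of 5 libraries. ASNS is drawn too, but its level should not be read beside those of the other genes. PSAT1, PHGDH and MTHFD1 lie together at 64.5 to 64.7 with the empty vector and spread to 112, 85.9 and 63.8 with RORα.

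Genes of the neighbouring pathways moved in both directions, apart from the regulators, of which none fell. Lists of such genes, drawn up with earlier results of these data known, held 81 genes, of which 69 were tested, 24 rose, 21 fell and 24 did not pass, beside 28.6% of all genes called higher and 27.5% lower. The counts of the single lists below are small and stand beside the same shares. Among 11 other folate genes 1 rose and 4 fell, while 6 did not pass (median log2 fold change -0.04). The rise was that of MTHFD2L, a mitochondrial homologue of MTHFD2, which averaged 9.97 ± 1.30 CPM with RORα and 6.04 ± 1.17 CPM with the empty vector (SD, n = 5 each, 1.65-fold, edgeR adjusted p = 1.53e-06). MTFMT, which formylates the initiator tRNA of mitochondria, fell by 0.28 on the log2 scale, SLC19A1, the reduced folate carrier, by 0.23 and TYMS, thymidylate synthase, by 0.22. The groups overlapped for TYMS, which passed narrowly (edgeR adjusted p = 0.0449). Of 5 genes of glycine cleavage and serine import into mitochondria 2 rose, 1 fell and 2 did not pass. SFXN3, of the sideroflexin family of serine carriers, rose by 0.74 on the log2 scale (87.4 ± 5.71 CPM with RORα, 52.3 ± 2.39 CPM with the empty vector, SD, n = 5 each). SFXN1 and SFXN2 of the same family, named after their values were seen, did not pass, with log2 fold changes of -0.05 and -0.02. SFXN1 averaged 221 CPM with RORα and 230 CPM with the empty vector, above SFXN3. GLDC, glycine decarboxylase, rose by 0.48 with overlapping groups, and DLD, the dehydrogenase it shares with other complexes, fell by 0.12.

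Of 12 genes that use serine 3 rose and 6 fell, while 3 did not pass (median log2 fold change -0.06), against 28.6% higher and 27.5% lower over all genes. CTH and CBS, which turn homocysteine and serine into cysteine, rose by 0.62 and 0.32 on the log2 scale, and SDSL, a serine dehydratase homologue, by 0.62. SRR, serine racemase, fell by 0.41, and the groups overlapped for both CTH and SRR. Of 7 genes of the methionine cycle 1 rose, 2 fell and 4 did not pass. MTR, which moves the methyl group from folate to homocysteine, rose by 0.44 (136 ± 4.80 CPM with RORα, 101 ± 4.83 CPM with the empty vector, SD, n = 5 each), its reductase MTRR fell by 0.12 and MAT2B, a subunit of methionine adenosyltransferase, by 0.09. The groups overlapped for MAT2B, which passed narrowly (edgeR adjusted p = 0.0437). Of 6 genes of purine ring synthesis 1 rose and 3 fell, while 2 did not pass (median log2 fold change -0.13). PFAS rose by 0.17, while ADSL fell by 0.34, PAICS by 0.25 and PPAT, the first enzyme, by 0.22. The groups overlapped for PFAS and PPAT.

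Of 16 genes of aspartate, glutamate, proline and branched chain steps 7 rose and 5 fell, while 4 did not pass (median log2 fold change 0.02), beside the same 28.6% and 27.5%. GLUL, glutamine synthetase, fell by 0.84. ASS1, which like ASNS consumes aspartate, rose by 0.99 and BCAT2, the mitochondrial branched chain aminotransferase, by 0.65. Of 12 regulators reported to act on these genes 9 rose and none fell, while 3 did not pass (median log2 fold change 0.33), against 28.6% higher and 27.5% lower over all genes. TRIB3, a pseudokinase that binds ATF4, rose by 1.78, ATF3 by 1.41, CEBPB by 1.03 and DDIT3, which encodes CHOP, by 0.79. ATF4 and MYC, named after their values were seen, rose by 0.63 and 0.34. The 4 kinases of eIF2α, also named after their values were seen, had log2 fold changes between 0.02 and 0.17. EIF2AK1 rose by 0.17 and EIF2AK2 by 0.13 (edgeR adjusted p = 0.000178 and 0.00717), while EIF2AK3 and EIF2AK4 had log2 fold changes of 0.05 and 0.02 and did not pass (edgeR adjusted p = 0.584 and 0.662).

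**Figure D5:**
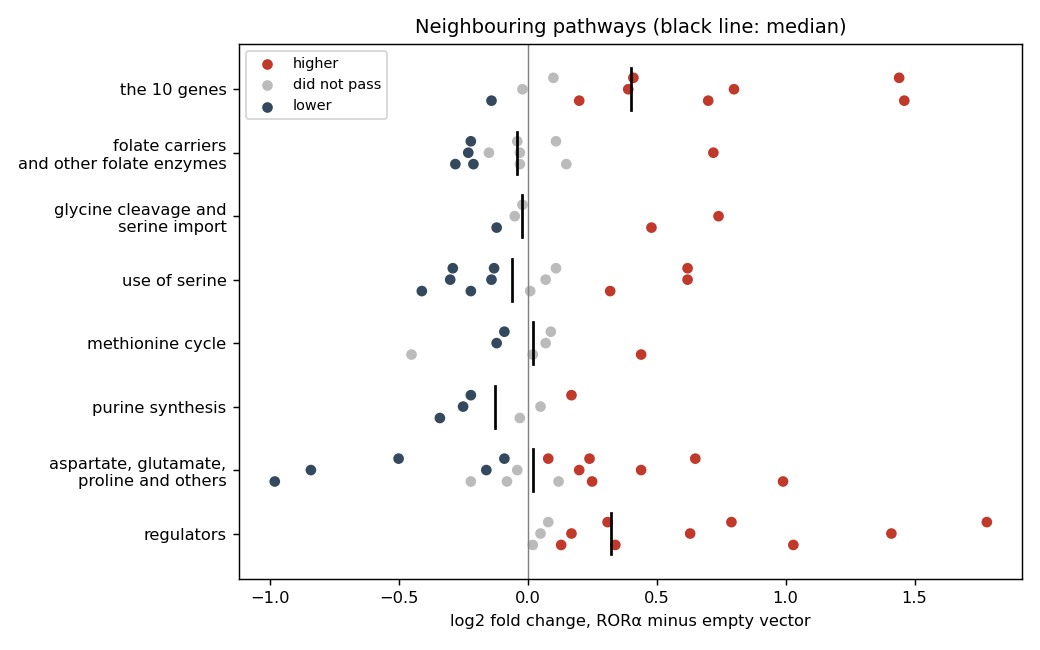
Log2 fold change (x axis, RORα minus empty vector) of each tested gene in the 10 described here and in 7 lists of neighbouring genes (rows); points are genes coloured by call and the black line is the row's median. The median is 0.40 for the 10 genes, 0.33 for the regulators and between -0.13 and 0.02 for the other lists.

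A profile of the 10 genes was made as the mean of their standardised log2 CPM in each library, and the genes outside the set whose log2 CPM correlated best with it over the 10 libraries were listed. They were YJU2B (Pearson r = 0.996), TTC28 (0.992), MFSD12, a lysosomal cysteine importer (0.991), WHRN, a scaffold protein of hair cells (0.990), and FOSL2, a subunit of AP-1 (0.989). All 5 rose with RORα, from 1.18-fold for TTC28 to 1.90-fold for WHRN. The points fall into the 2 groups of libraries, so these values follow the difference between groups and are given as a description.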

How the data were processed

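Messenger RNA of 10 libraries was measured by sequencing after poly-T bead selection and random hexamer priming, per the labels' protocols. HISAT2 2.2.1, HTSeq and GRCh38 are named in the submitters' processing notes. The deposited table held whole-number counts and FPKM for 12540 genes, per the file headers. The gene length behind the deposited FPKM was at the median 1.00 times the summed exons of all transcripts in GENCODE 29. FPKM was therefore not compared between genes. For MTHFD2, MTHFD1 and ALDH1L2 that length was 49660, 88242 and 27449 bases, against 12387, 20568 and 18709 in GENCODE 29. The submitters' annotation of these genes may thus differ from the GENCODE 29 lengths and exon overlaps used here, which was not tested. Every gene had at least 88 counts over the 10 libraries, and how the table was reduced is not stated.

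Groups came from the sample titles. Genes passing filterByExpr (minimum count 10, minimum total 15) were fitted in edgeR 4.0.16 (R 4.3.3) with TMM factors, estimateDisp, glmQLFit and a two-sided glmQLFTest, which kept 12520 and left out 20. Adjusted p-values are Benjamini-Hochberg values over all of them. Standard errors are the coefficient divided by the root of F, and 95% intervals use the test's degrees of freedom. Count ratios were compared by exact permutation. A count of 3, the limit of a count of 0, equals 0.137 to 0.172 CPM on library totals without TMM factors, which covers counting error only. No libraries were copies, with a chi-square per degree of freedom of 2.28 to 5.74 over 20 pairs within groups.

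The genes named were the 10 members, RORA, up to 4 genes past the threshold per list with any past 2-fold, and the 5 genes most alike. ATF4, MYC, SFXN1, SFXN2, the 4 eIF2α kinase genes and the marker genes were named outside this rule. A gene that this rule selected is not reported here. The members and lists were chosen with earlier results of these data known. Alternatives were DESeq2 1.42.0, its size factors (RLE), library totals alone, no filter, limma 3.58.1 on log2(FPKM + 1) or log2(FPKM + 0.1), the replicate number as a block, and leaving out each library.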

Additional observations from a re-analysis of the deposited data

Results flagged for a closer look

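ASNS in the RORα libraries was flagged because OE1, at 1.46 CPM, stood apart from the other 4, which lay between 1.98 and 2.13 CPM. The gap was 0.772 of the group's range, above the Dixon limit of 0.71 for 5 samples. Without OE1 the log2 fold change of ASNS was 1.55, against 1.46 with it. SHMT1 in the RORα libraries was flagged because OE4, at 46.3 CPM, lay below the other 4 by 0.720 of the range. Without OE4 the log2 fold change of SHMT1 was 0.12 with an edgeR adjusted p of 0.0502. In all, 28 sets of 5 libraries were examined, and chance flags about 1 in 20. The causes were not tested.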

How the results depend on the processing

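Over 18 alternatives the 10 genes gave 178 values, of which 177 kept their direction and their side of the threshold and none reversed. The exception was SHMT1 without EV3. The count of genes that rose lay between 6 and 8 and the count that fell was 1 throughout. The lower count came from limma with a filter on mean FPKM, where ASNS was not tested. On log2(FPKM + 1) without that filter the log2 difference was 0.07 for ASNS and 0.80 for ALDH1L2, a scale on which low genes move little. RORA lay between 0.73 and 1.51 and passed in each. Over all genes the calls numbered 5067 to 7043, against 7026. Leaving out a library moved SHMT2 over SHMT1 between 0.26 and 0.32 on the log2 scale, MTHFD2 over MTHFD1 between 0.70 and 0.73, and MTHFD1L over MTHFD1 between -0.15 and -0.10. With the replicate number as a block edgeR made 6950 calls, and the 3 ratios kept differences of 0.29, 0.72 and -0.12 with an exact p of 0.0625, the smallest that 5 pairs allow. Correlations of same-number residuals lay between -0.09 and 0.09, and 1 of 5 libraries in each group correlated best with its own number, so the libraries were treated as unpaired. ASNS, with the fewest counts, had the widest interval.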
